A study of Rattus norvegicus with 6 samples.

Results

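The genes described are the rat olfactory receptors of family 2, measured in liver. They were found by name alone: an array row was taken when its RefSeq transcript now carries a symbol of the form Or2 followed by a letter (many were formerly called Olr). This gave 116 rows for 116 genes, out of 26419 rows in all, and every one has a curated transcript identifier. The rule itself uses no measured value.

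Liver RNA came from male Sprague Dawley rats kept on a 60% high-fat diet for 9 weeks and dosed into the stomach. In the dark tea group, 3 samples came from rats given 8730 dark tea, which was fermented with Eurotium cristatum, a fungus deposited as CGMCC No.8730. In the control group, 3 samples came from rats given distilled water. Both groups were on the high-fat diet, normal-diet livers are not analysed here, and the age of the rats and whether each sample is 1 animal are not given in the sources used here. Each sample was hybridised in 1 colour to its own NimbleGen expression array, so there are 6 arrays, and their number limits the precision of every value.

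Olfactory receptors are G protein-coupled receptors that bind odorants. In the nose, each olfactory sensory neuron expresses mainly a single receptor gene, and the receptor signals through the G protein Golf, adenylyl cyclase and a cyclic nucleotide-gated channel. The genes form one of the largest mammalian families, lie in clusters of similar copies, and usually have their whole coding sequence in a single exon. Liver has no part in smelling, and the family serves here as a class of genes not looked for in this tissue.

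The tissue label was first set against marker genes. All 15 hepatocyte markers lay above the random control row, a control of random sequence on the array, on all 6 arrays, with a median log2 intensity of 14.43. The abundant plasma protein genes Alb, Tf and Fga led that list, at mean levels of 15.60, 15.36 and 15.28. Of 27 genes for olfactory signalling and its chaperones, 13 had a named row. Gnal, the gene of the Golf alpha subunit, and the receptor chaperone genes Rtp1 and Rtp2 had none, so the values do not cover them. The median level of the 13 was 5.63, and 4 of the 13 lay above the random control row on all 6 arrays. The highest of them, Gnb1 at a mean of 8.16, Ric8b at 6.27 and Cngb1 at 6.20, include genes used far outside the nose: Gnb1 encodes a widespread G protein beta subunit and Ric8b a chaperone of G protein alpha subunits. Gnb1 read 5.81 in control replicate 1 and 8.06 to 9.01 on the other arrays.

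Omp, which marks mature olfactory neurons, was at 5.09, 5.75 and 5.34 in the tea arrays and at 4.91, 4.65 and 4.84 in the controls. It lay above the random control row on 3 of 6 arrays, the 3 tea arrays. Its difference of 0.59 ± 0.31 (log2, SE) missed the correction over all rows (limma, adjusted p = 0.949). Of the channel subunits, Cnga2 lay above the random row on 6 arrays and Cnga4 on 4, and Adcy3, the cyclase of the olfactory pathway, on 4. The linear intensities of the 13 genes summed to between 871 and 1208 in the tea arrays and between 936 and 1100 in the controls, ranges that overlap. On every array but control replicate 1 the widespread Gnb1 was the largest part of this sum. The sums therefore say little about dimmer genes such as Omp. Omp's direction was not that of most of the list. Of the 13 genes, 5 were higher and 8 lower with tea, and their median log2 difference was -0.05. None of the 13 reached an unadjusted p under 0.05, and the part of these genes in the receptor values below was not tested.

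Because members of the family resemble each other closely, the first 50 coding bases of some of them are shown before their values. They come from RefSeq windows on the GRCr8 assembly, which hold 97 of the 116 genes. In all 97 the annotated gene begins with the start codon, in capitals below, against 9.00% of all windows, so these gene models hold no untranslated bases before it. The first 7 lines are bright rows and close relatives of them, and the last 5 are receptors with the widest tea differences and a close relative. Their places are chr10:43985353-43985402 for Or2t45, chr10:34289946-34289995 for Or2y13, chr10:34218945-34218994 for Or2y1c, chr10:34258313-34258362 for Or2y1, chr10:34238313-34238362 for Or2y1i and chr10:43788732-43788781 for Or2ak4e, all on the plus strand. Or2ak5d lies at chr10:43713038-43713087 on the minus strand. Or2d3c is at chr1:170169619-170169668 and Or2g7 at chr20:500542-500591, both minus, and Or2a57 is at chr4:73046339-73046388, Or2a25 at chr4:72878588-72878637 and Or2g25 at chr20:816136-816185, all plus.
Or2t45: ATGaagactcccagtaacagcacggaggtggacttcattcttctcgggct
Or2y13: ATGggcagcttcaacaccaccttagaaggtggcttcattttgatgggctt
Or2y1c: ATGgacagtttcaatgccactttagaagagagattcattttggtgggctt
Or2y1: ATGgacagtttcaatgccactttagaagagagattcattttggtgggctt
Or2y1i: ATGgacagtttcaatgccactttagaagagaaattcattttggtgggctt
Or2ak4e: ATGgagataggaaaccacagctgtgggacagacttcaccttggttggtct
Or2ak5d: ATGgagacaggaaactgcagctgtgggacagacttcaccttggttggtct
Or2d3c: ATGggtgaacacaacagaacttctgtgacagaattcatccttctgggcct
Or2a57: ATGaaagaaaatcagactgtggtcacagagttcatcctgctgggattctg
Or2a25: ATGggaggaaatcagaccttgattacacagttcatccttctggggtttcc
Or2g7: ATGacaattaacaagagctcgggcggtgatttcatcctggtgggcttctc
Or2g25: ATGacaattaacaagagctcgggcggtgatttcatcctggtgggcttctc

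Most family 2 rows were dim, and a small number were bright. The random control row read 5.06, 5.10 and 5.15 on the log2 scale in tea replicates 1, 2 and 3 and of 5.40, 5.10 and 5.05 in control replicates 1, 2 and 3. The median family 2 level was 5.50, 5.60 and 5.75 in the tea arrays and 6.03, 5.48 and 5.46 in the controls, which placed it 0.38 to 0.63 above the random control row. Over all rows of the array the medians were 6.44 to 6.58. A level is the brightness of a row, which depends on the binding of its oligonucleotides and on related transcripts as well as on abundance, so levels of different rows are not amounts of RNA relative to each other.

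On all 6 arrays, 53 of the 116 receptors lay above the random control row, which is 45.7%, against 67.1% of all rows. A further 59 were above it on some arrays only. The remaining 4, Or2d4, Or2ag1, Or2t48b and Or2ak5d, were never above it. A margin of at least 1 on the log2 scale on all 6 arrays was reached by 29 receptors, 25% of them, and by 42.3% of all rows. By the mean over arrays, 90 lay above the random row, so the count depends strongly on how it is set. With any 1 array left out, where the count can only stay or rise, it was 54 to 60, with 60 when control replicate 1 was left out.

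The distribution had a long upper tail. Mean levels under 5 were found for 12 receptors, 5 to 6 for 61, 6 to 7 for 22, 7 to 8 for 13, 8 to 10 for 5 and over 10 for 3. The middle of the family lay at percentile 27.6 of all rows, 31 receptors lay above the median of all rows, and 8 lay in the top 25% of rows. The SD of the mean levels over receptors was 1.24, and the median SD of a row within groups was 0.37. The first describes the brightness of different rows, not amounts of RNA.

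**Figure D1:**
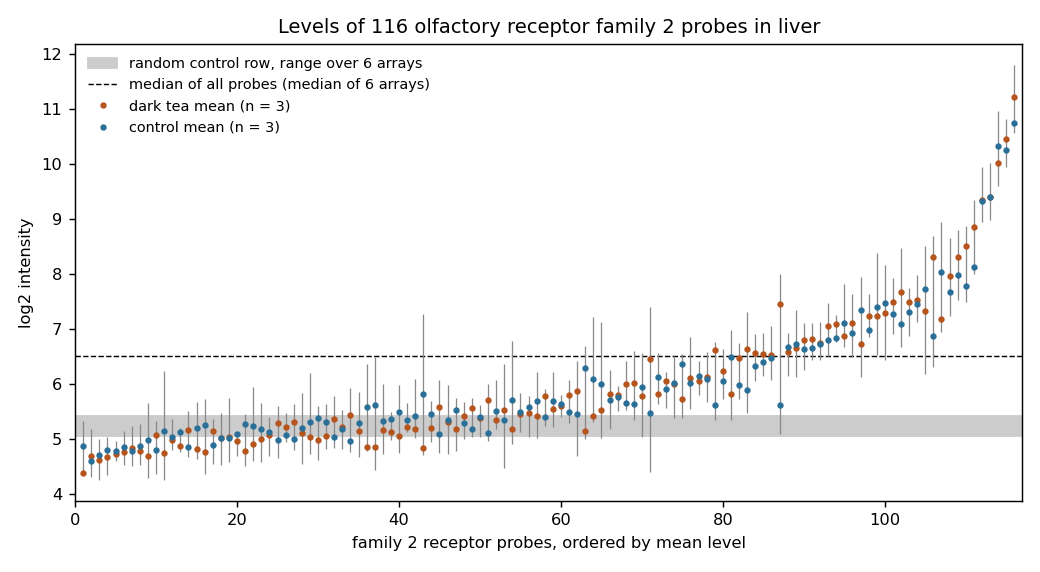
Log2 intensity of the 116 family 2 receptor rows, ordered by mean level, with group means as points (n = 3 each) and a grey line from the lowest to the highest of the 6 arrays. The means of 61 rows lie at 5 to 6, around the grey band of the random control row. Another 12 rows have means under 5, below the band, and 8 exceed a mean of 8.

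The brightest rows were largely the same on each array. Or2t45 read 10.63, 11.20 and 11.81 on the log2 scale with tea and 10.57, 10.92 and 10.74 with water, at percentile 93.8 of all rows. Or2y13 read 9.95, 10.60 and 10.82 with tea and 10.09, 10.42 and 10.22 with water. Both were bright on every array, and in both the groups overlapped.

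Or2y1c had levels of 9.59, 10.40 and 10.04 with tea and of 10.96, 10.40 and 9.60 with water. Or2y11 read 8.98, 9.18 and 10.02 against 9.61, 9.35 and 9.24, and Or2ak4e 8.94, 9.14 and 9.95 against 9.20, 9.71 and 9.07. Tea replicate 3 was the highest tea array in 4 of these 5 receptors, the exception being Or2y1c. Of the 10 brightest receptors of each array, 7 were shared by all 6 arrays: Or2t45, Or2y13, Or2y1c, Or2y11, Or2ak4e, Or2t48d and Or2r3b.

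None of these 5 differed between groups beyond the spread. The log2 difference, tea minus control with limma's SE, was 0.47 ± 0.35 for Or2t45, 0.21 ± 0.33 for Or2y13, -0.31 ± 0.40 for Or2y1c, -0.01 ± 0.35 for Or2y11 and 0.02 ± 0.36 for Or2ak4e. The 95% interval was widest for Or2y1c, from -1.19 to 0.57. Single arrays moved these values: Or2y1c was at 0.01 without control replicate 1 and at -0.67 without control replicate 3, and Or2t45 at 0.76 without tea replicate 1 and at 0.18 without tea replicate 3. Without tea replicate 3 the difference was 0.03 for Or2y13, -0.32 for Or2y11 and -0.29 for Or2ak4e, and without tea replicate 1 it was 0.46, 0.20 and 0.22.

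At the other end, Or2ad1 had the lowest mean, 4.63, followed by Or2b2 at 4.65 and Or2ak5d at 4.66. Their percentiles among all rows were 0.102, 0.140 and 0.163. Another 3 were looked at because their human namesakes have known odorants, after their values were seen. Or2ag1, whose human namesake responds to amyl butyrate, had a mean of 4.75 and was never above the random row. Or2j3, whose human namesake detects a grassy leaf alcohol, had a mean of 5.01 and was above it on 1 array. Or2w1, whose human namesake is broadly tuned, had a mean of 5.75 and was above it on 5 arrays, with 7.12 in control replicate 1 and between 5.02 and 5.83 in the others.

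The likeness of the arrays was described by correlations across receptors. Across the 53 receptors above the random row on all arrays, Pearson's r between pairs of arrays was 0.857 to 0.951. Across the other 63 it was -0.09 to 0.17 in pairs with control replicate 1 and 0.27 to 0.64 in the others. These 63 were set apart by their closeness to the random control row, and such a narrow range of levels lowers r by itself. Over all 116, r was 0.811 to 0.864 in pairs with control replicate 1 and 0.905 to 0.944 in the others. These values run across genes, which share their arrays and are not independent replicates.

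Family 2 rows were brighter in the median than other chemosensory receptor rows. The mean level over arrays had a median of 5.60 for family 2, 5.33 for the 1007 other olfactory receptors, 5.27 for 55 vomeronasal receptors and 5.24 for 23 taste receptors. The share above the random row on all 6 arrays was 45.7% for family 2, 30.2% for the other olfactory receptors, 20% for the vomeronasal and 21.7% for the taste receptors. The share in the top 25% of all rows was 6.90% for family 2 and 2.09% for the other olfactory receptors. Genes are not replicates and no test was made of these differences in level. The vomeronasal rows were taken by the rat symbols Vom1r and Vom2r, a choice made after the data were seen, because 0 rows had the symbols first listed.

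**Figure D2:**
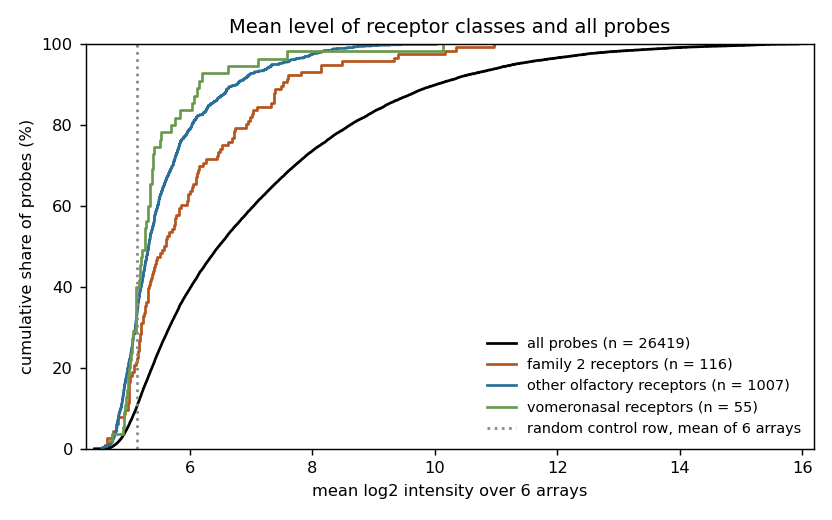
Cumulative share of rows by mean log2 intensity over 6 arrays, for all rows, family 2, other olfactory receptors and vomeronasal receptors, with the random control row as a dotted line. At their medians of 5.60, 5.33 and 5.27 all 3 receptor classes lie left of all rows, with family 2 nearest to them, an order that does not hold in the lower tail.

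The 116 receptors fell into 29 subfamilies by the letters of their symbols, of which 9 had at least 4 rows and 12 had 1 row. The Or2h, Or2y and Or2ak subfamilies were the brightest of the 9, with median levels of 6.96, 6.72 and 6.30 and with 4 of 5, 8 of 13 and 7 of 12 rows above the random control on all arrays. Or2t, the largest with 15 rows, had a median of 5.97 and the widest spread, from 4.73 to 10.98. Or2a, Or2n, Or2d and Or2ag had medians of 5.61, 5.40, 5.28 and 5.26. In Or2v all 4 rows lay between 5.02 and 5.19, and none was above the random row on all arrays.

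Close relatives and neighbours differed widely in level. In the reference table the 13 measured Or2y genes sit in 1 run of neighbouring receptor genes with no other protein-coding gene between them, and their mean levels ran from 5.0 to 10.35. The order along the run was Or2y1g at 8.15, Or2y1h at 6.93, Or2y1e at 5.0, Or2y1d at 5.35, Or2y16 at 5.97, Or2y15 at 5.17, Or2y1c at 10.17, Or2y1i at 6.72, Or2y14 at 5.43, Or2y1 at 5.07, Or2y13 at 10.35, Or2y12 at 7.38 and Or2y11 at 9.40. Bright and dim rows were interspersed along it. In the run of 11 measured Or2ak genes the levels went from 4.66 for Or2ak5d to 9.33 for Or2ak4e. The brightest receptor, Or2t45, lay in a run of 5 measured genes whose other members were at 4.93 to 6.63.

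Genes alike at the start of the coding sequence could differ widely in level. Among 4656 pairs of the 97 genes with a window, 89 matched at 45 or more of the 50 bases, and 22 of these 89 pairs lay 2 or more apart in log2 level. Or2y1 and Or2y1c, identical over the 50 bases printed above, were at 5.07 and 10.17. Or2y1i matched Or2y1c at 49 of these bases and stood at 6.72. Over the 300-base window this pair matched at 95%, but 250 of those bases lie before the gene start and are not coding. Or2ak4e and Or2ak5d matched at 47 of the 50 coding bases and were at 9.33 and 4.66. The median gap was 1.21 over the 89 close pairs and 0.82 over all the other pairs. The 89 pairs drew on 50 genes, and pairs that share a gene are not independent. Many of them lay within Or2ak, and many of the gaps of 2 or more came from the bright Or2ak4e. Count and median therefore describe that subfamily more than any other, and the share of such gaps among the other pairs was not counted. Which part of each transcript the array oligonucleotides cover is not given in the sources used here, so signal shared between relatives was not tested.

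**Figure D3:**
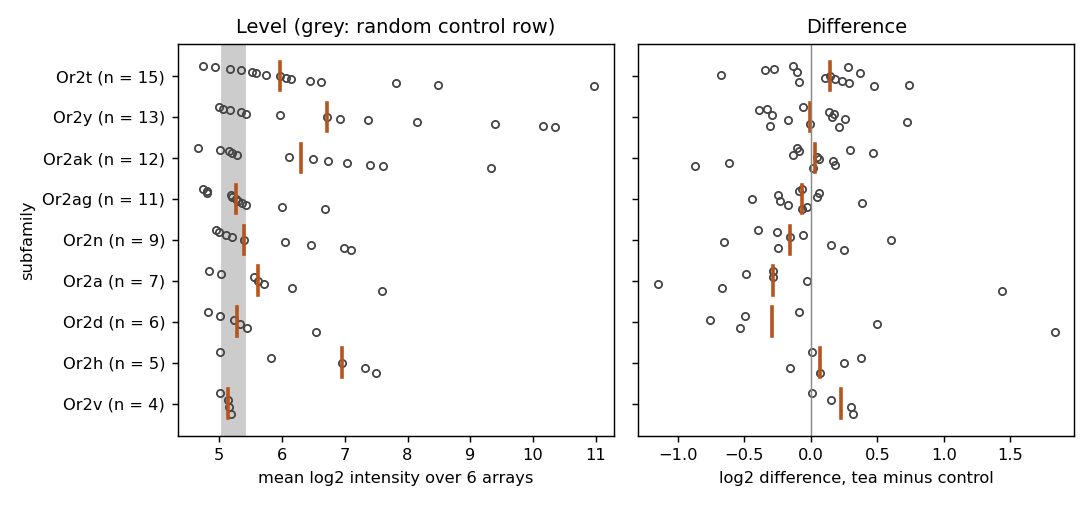
The 9 subfamilies with at least 4 rows. The left panel gives each row's mean log2 intensity over 6 arrays and the right panel its log2 difference, tea minus control, with orange bars at the medians. Or2y and Or2ak spread from the grey band of the random control row to levels above 9. The subfamily medians of the difference, with all 6 arrays, lie between -0.29 and 0.23.

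Dark tea was then compared with control, to ask whether any receptor differed with the tea. No family 2 receptor passed the correction over all 26419 rows (limma with Benjamini-Hochberg adjustment, adjusted p from 0.949 to 0.999), where 0.00379% of all rows did. At an unadjusted p under 0.05 with at least a 1.5-fold change, 5 receptors were higher and 1 was lower with tea. That is 4.31% and 0.862% of the 116, against a background of 1.97% of all rows higher and 2.26% lower. With single arrays left out the higher count ran from 3 to 8, with 8 when tea replicate 1 was left out and 3 when tea replicate 2 or 3 or control replicate 1 or 3 was. The lower count ran from 1 to 6, with 6 without control replicate 2, 4 without control replicate 3 and 2 without tea replicate 2 or control replicate 1. The background shares are for the fit with all arrays, and none is given for these omissions. Changes in these counts are therefore not read as particular to the family.

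Groups did not overlap in 12 receptors, 7 with all tea arrays above all controls and 5 with all below. These are 6.03% and 4.31% of the family, against 4.87% and 5.54% of all rows, so the count is near the background. For each of the 12 the exact two-sided permutation test gave p = 0.1, the smallest that 3 arrays against 3 allow. Groups that do not overlap always give this value, so it adds nothing to their selection. Of the 116 log2 differences, 97 were smaller than 0.5 in size and 4 were at least 1, and the median SE was 0.33.

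Or2d3c had the widest difference of the family. Its log2 intensity was 6.67, 8.0 and 7.68 with tea and 5.09, 6.17 and 5.60 with water, with the value in control replicate 1 below that array's random control. All tea arrays lay above all controls. Tea exceeded water by 1.83 ± 0.42 in log2 units (SE, 95% interval 0.90 to 2.76), a 3.56-fold change that missed the correction (limma, adjusted p = 0.949). It ran from 1.56 to 2.22 with any 1 array left out, and was 1.57 without control replicate 1.

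The other 5 measured Or2d receptors did not share that difference. Or2d2 differed by 0.49 ± 0.33, Or2d4 by -0.09 ± 0.31, Or2d36 by -0.49 ± 0.35, Or2d2b by -0.53 ± 0.44 and Or2d36b by -0.75 ± 0.44, and their mean levels were 4.83 to 5.44. Or2d2 and Or2d2b are identical over their first 50 coding bases and had differences of opposite sign. Without control replicate 1 the Or2d2b difference was -0.001 and that of Or2d36b was -0.32.

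Or2a57 had the next widest difference. It read 8.25, 7.99 and 8.69 with tea and 6.59, 7.73 and 6.30 with water, above the random control on all 6 arrays. Control replicate 2 came close to the tea arrays and the other controls lay lower. The difference was 1.44 ± 0.41 (95% interval 0.53 to 2.34, limma adjusted p = 0.949), and 1.15 to 1.87 with 1 array left out.

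Within the same subfamily Or2a25 went the other way. It had 5.0, 5.16 and 5.26 with tea and 6.69, 6.58 and 5.60 with water, so the tea arrays were at the level of the random control row and the controls above it. The difference was -1.15 ± 0.35 (95% interval -1.93 to -0.37, limma adjusted p = 0.949), and -0.95 without control replicate 1. The remaining Or2a receptors, Or2a5, Or2a7, Or2a14, Or2a20 and Or2a51, differed by -0.03 to -0.66. Or2a25 and Or2a57 match at 37 of the 50 bases printed above and lie in 1 run of neighbouring receptor genes.

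In Or2g7, a receptor of a small subfamily, the groups were also separate. It read 6.76, 6.68 and 6.43 with tea and 6.0, 5.50 and 5.34 with water, and all 6 lay above their random control. The difference was 1.01 ± 0.31 (95% interval 0.32 to 1.69, limma adjusted p = 0.949). It was 0.87 to 1.20 with 1 array left out, and highest without control replicate 1. Or2g25, with the same first 50 coding bases, had 4.93, 5.27 and 5.26 with tea and 5.99, 5.27 and 4.73 with water, a difference of -0.18 ± 0.36 that became 0.15 without control replicate 1.

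Among bright rows, Or2t48d and Or2y1g had all tea arrays above all controls. Or2t48d read 8.37, 8.87 and 9.34 with tea and 8.0, 8.28 and 8.08 with water, and Or2y1g 8.27, 8.38 and 8.87 against 7.49, 8.08 and 7.78. In both, tea replicate 3 was the highest array. Their differences were 0.74 ± 0.33 and 0.72 ± 0.32, with limma adjusted p = 0.949 for each, and 0.50 and 0.54 without tea replicate 3. Or2y1e, identical to Or2y1g over the first 50 coding bases, differed by -0.06 ± 0.30 at a mean level of 5.0.

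The other 6 receptors with separate groups were each under the random control row on 1 to 5 of the 6 arrays. Or2n1k and Or2ag2 were higher with tea, by 0.60 ± 0.31 and 0.38 ± 0.29, and Or2n1i and Or2ad1 lower, by -0.25 ± 0.28 and -0.49 ± 0.31. Or2f1 had 5.0, 4.76 and 4.70 with tea and 7.28, 5.17 and 5.02 with water, so control replicate 1 alone was bright. Its difference went from -1.0 ± 0.53 to -0.27 without that array. In Or2ah1, with 6.36 in control replicate 1 and 4.78 to 5.23 in the other 5 arrays, it went from -0.74 ± 0.37 to -0.35. Or2ab1 had the widest range of all 116, 3.01, with 5.94, 6.02 and 7.40 against 4.39, 6.29 and 5.70. Here control replicate 1 was the lowest array and tea replicate 3 the highest, and the difference went from 0.99 ± 0.53 to 0.46 without control replicate 1.

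**Figure D4:**
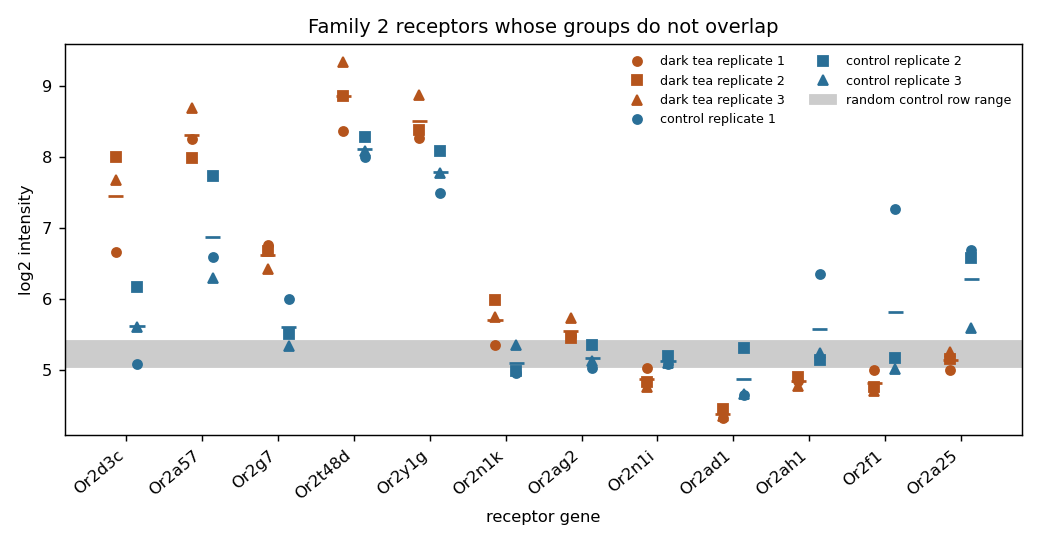
Log2 intensity on each of the 6 arrays for the 12 family 2 receptors whose groups do not overlap, with bars at group means (n = 3 each) and the range of the random control row in grey. Or2d3c, Or2a57, Or2g7, Or2t48d and Or2y1g stand mainly above the band, and in Or2f1 and Or2ah1 control replicate 1 lies far above the other controls.

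Over the family as a whole the differences lay on both sides of 0 in near-equal numbers, and the sign of their median turned with several choices. With all 6 arrays 56 receptors were higher and 60 lower with tea, and the median log2 difference was -0.02, beside -0.002 over all rows. For the other olfactory, the vomeronasal and the taste receptors the medians were -0.04, -0.09 and -0.0003 with all arrays. Leaving out control replicate 1 moved them to 0.09, 0.12 and 0.21. Family 2 moved the same way without this array, with 77 higher, 39 lower and a median of 0.11, beside 0.006 over all rows. The median was also 0.08 without tea replicate 1 and 0.0003 without tea replicate 2, and it was 0.06 when each array's random control value was subtracted, beside 0.08 over all rows.

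Control replicate 1 was the array that stood apart from the rest of the series, and receptor rows were bright on it. It was the highest of the 6 arrays for 42 of the 116 receptors, 36.2%, and the lowest for 15, 12.9%. Of all rows it was the highest for 28.1% and the lowest for 27.4%. The other olfactory receptors gave 38.9% and 12.6% and the vomeronasal receptors 50.9% and 5.45%. Its random control row, at 5.40 against 5.05 to 5.15 on the other arrays, was the highest as well, and so was its 10th percentile over all rows, at 5.11 against 4.95 to 5.03. Background and family moved together on this array, and the part of one in the other was not tested. Tea replicate 3 was the highest array for 35 receptors, 30.2%, and for 19.3% of all rows.

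The counts are also given by level, as a description with no test, since the classes were set by the same array values as the differences. Of the 63 receptors at or under the random control row on 1 array or more, 22 were higher with tea, and 36 without control replicate 1. Of the 23 above it on all arrays but under the median of all rows, 14 were higher, and 18 without that array. Of the 30 above that median and above the random row, 20 were higher, and 23 without it. The medians of the difference in these 3 classes were -0.10, 0.11 and 0.16 with all arrays and 0.04, 0.22 and 0.23 without control replicate 1. Over all rows the corresponding medians were -0.04, -0.05 and 0.05 with all arrays and 0.03, 0.06 and -0.04 without it.

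**Figure D5:**
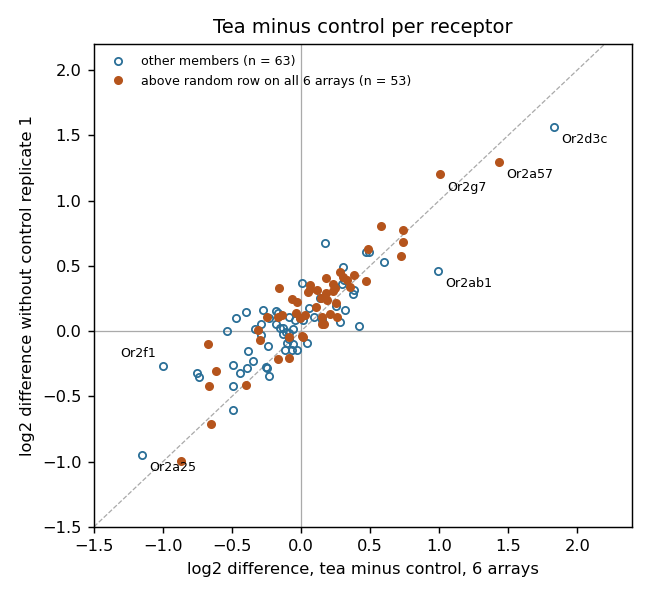
Log2 difference, tea minus control, of each of the 116 receptors with all 6 arrays (horizontal axis) and without control replicate 1 (vertical axis), with the line of equality dashed. Or2d3c, Or2a57 and Or2g7 keep differences of at least 1 on both axes, and Or2f1 moves from -1.0 to -0.27.

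Differences of both signs were found in 8 of the 9 larger subfamilies, Or2v being the exception. With all 6 arrays the medians of the difference in these 9 lay between -0.29 in Or2d and Or2a and 0.23 in Or2v. Without control replicate 1 only Or2a kept a negative median, -0.15. Those of Or2d, Or2ag, Or2n and Or2y turned from negative to positive, at 0.05, 0.10, 0.06 and 0.10. The differences and counts that follow use all 6 arrays. All 4 Or2v receptors had higher means with tea, by 0.01 to 0.31, at the level of the random control row. In Or2a, 6 of 7 were lower beside the higher Or2a57, and in Or2d 4 of 6 were lower beside the higher Or2d3c and Or2d2. In Or2y 6 of 13 were higher, in Or2t 9 of 15, in Or2ak 7 of 12, in Or2ag 3 of 11, in Or2n 3 of 9 and in Or2h 4 of 5. None of these counts was tested, since the members were listed with earlier results known.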

How the data were processed

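Cy3-labelled liver RNA of 6 samples was measured on NimbleGen arrays in 1 colour, as the labels' protocols say. The deposited table holds 1 linear intensity per row and array, for which the submitters' processing notes name RMA. The version, the background setting and the oligonucleotides are not given in the sources used here, and normalization can remove differences in total signal, although the deposited arrays are not identical in distribution, with medians of 6.44 to 6.58 in log2. Log2 was taken with no further scaling. The random control row was left out of the tests, and no other row was. Transcript identifiers without versions were matched to RefSeq's table for GRCr8: 9747 of 26419 rows had 1 symbol, 0 several and 16672 none here.

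Tea was compared with control over all rows with limma 3.58.1 (R 4.3.3), using lmFit, eBayes and a Benjamini-Hochberg threshold of 0.05. These two-sided tests were tested on simulated data with independent normal noise in each row. No simulated array stood apart from the others, unlike control replicate 1 here, so the simulation does not cover that trait of these data. No label calls the replicates separate animals, and the p-values then reflect only how these samples vary, which may be technical. Exact permutation tests were two-sided.

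The members and lists were chosen with earlier results of these data known. The text names the 5 brightest and 3 dimmest receptors, up to 8 per direction with separate groups, the 3 with the widest range, and Or2d3c and Or2a57 from earlier work, while receptors named outside this rule were added after their values were seen, as relatives, neighbours, subfamily members or namesakes of human receptors with known odorants, or for being bright on all arrays or never above the random control row. Alternatives were further scalings, a floor and a filter at the random control row, other variance models, weights per array, a block for the replicate number, other thresholds and leaving out each array.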

Additional observations from a re-analysis of the deposited data

How the results depend on the processing

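No receptor passed the correction under the alternatives tried, at an adjusted p under 0.1 included, except with array weights, where 1 did: Or2d3c (limma, adjusted p = 0.0452). These weights gave control replicate 1 the least say, 0.253, and tea replicate 2 the most, 4.50, and called 27 rows in all, and Or2g7 then had an adjusted p of 0.0762. Array weights also gave 11 higher and 4 lower receptors at an unadjusted p under 0.05 and 1.5-fold, against 5 and 1. The counts were 3 and 2 with trend and robust eBayes and 3 and 2 with the replicate block. They were 3 and 1 with dim rows left out and 3 and 1 at 2-fold. With 1 array left out they ran from 3 to 8 higher and from 1 to 6 lower, with 0 past the correction. Quantile normalization, centring, subtracting or flooring at the random control row and unmoderated variances kept the counts at 4 to 5 higher and 1 lower. The shares of all rows at this unadjusted threshold are not given for the alternatives. A count that rises or falls under one of them is therefore not read as particular to the family.

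Deviations of same-numbered samples from their group means correlated at -0.22, 0.01 and -0.25, which shows no likeness of same-numbered samples. Such deviations cancel out within a group and are swayed by an array that stands apart, so these values cannot exclude a pairing. The median difference over the family lay between -0.07 and 0.11 over the scalings and omissions. The count of 53 receptors above the random control row became 90 by the mean over arrays and 29 with a margin of 1, and ran from 54 to 60 with 1 array left out. For the dim rows the random control row bounds what these values can show.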
